A study of Mus musculus with 7 samples.

Results

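The kainate and delta glutamate receptor genes were followed in tumor tissue of a mouse glioma model by the rows of 6 gene symbols, Grik1, Grik2, Grik3, Grik4, Grik5 and Grid1, among the 19257 genes of the normalized count table. All 6 genes were found and all 6 passed the expression filter, so every one was tested. RNA-Seq libraries came from bulk tumor tissue collected at endpoint under fluorescence guidance, with a library for each brain. The 3xCR tumors (labelled 3xCr, genotype control, replicates 2, 3 and 4, n = 3) were induced by in utero electroporation of a construct carrying Cas9 and guides against tumor suppressor genes, among them Trp53 and Nf1. The GPC6 tumors (labelled 3xCr; GPC6, genotype GPC6, replicates 1 to 4, n = 4) carried the same construct and in addition overexpressed glypican 6 from a piggyBac transposon, the system that also delivered the GFP reporter. CRISPR animals were bred on CD-1 and C57BL/6 backgrounds and both sexes were used. The age at endpoint, strain and sex behind each library were not taken from the labels, which do not give them, and a tumor-free brain is not analysed here. Because the electroporated cells are dissected together with the host tissue around them, each value is an average over tumor cells, neurons and other glia. In such bulk samples a lower level from fewer cells of a type cannot be told apart from less RNA per cell.

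Kainate receptors are tetrameric glutamate-gated cation channels found on both sides of the synapse. Grik1, Grik2 and Grik3 encode GluK1, GluK2 and GluK3, which form working channels by themselves, whereas Grik4 and Grik5 encode GluK4 and GluK5, the subunits of high glutamate affinity that need a partner of the first kind to reach the surface as a working channel. Neto1 and Neto2 are auxiliary proteins that set the gating of these channels. Grid1 encodes GluD1, a relative that is not opened by glutamate in the ordinary way and instead bridges the synapse by binding cerebellins, which in turn hold presynaptic neurexins. In the brain these genes are used by neurons, and several of them also by glial cells and their precursors.

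RefSeq promoter sequences (250 bases before to 50 bases after the gene start, build GRCm38.p6) were matched for 4 of the 6 genes, Grik2, Grik3, Grik4 and Grik5. The sequences of 3 of them are shown because these genes carry the patterns described for the libraries: Grik5 and Grik3 were the most abundant subunit RNAs, Grik2 resembled Grik5 over the 7 libraries (r = 0.93), and Grik3 had r = 0.45 to it. They are written 5′ to 3′, and the capitals mark the GC box GGGCGG or its reverse complement CCGCCC.
Grik5 (chr7:25072320-25072619, minus strand): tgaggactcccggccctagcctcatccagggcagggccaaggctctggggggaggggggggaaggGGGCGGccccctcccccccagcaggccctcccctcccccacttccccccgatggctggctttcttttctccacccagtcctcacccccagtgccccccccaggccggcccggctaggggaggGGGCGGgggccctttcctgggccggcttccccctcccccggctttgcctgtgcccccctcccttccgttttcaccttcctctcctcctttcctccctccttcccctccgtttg
Grik2 (chr10:49788705-49789004, minus strand): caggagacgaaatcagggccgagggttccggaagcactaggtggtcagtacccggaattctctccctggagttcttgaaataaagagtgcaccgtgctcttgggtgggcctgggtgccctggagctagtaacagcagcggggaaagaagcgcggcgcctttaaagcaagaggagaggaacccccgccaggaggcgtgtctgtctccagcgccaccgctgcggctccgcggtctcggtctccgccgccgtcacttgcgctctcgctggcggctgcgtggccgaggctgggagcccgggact
Grik3 (chr4:125490446-125490745, plus strand): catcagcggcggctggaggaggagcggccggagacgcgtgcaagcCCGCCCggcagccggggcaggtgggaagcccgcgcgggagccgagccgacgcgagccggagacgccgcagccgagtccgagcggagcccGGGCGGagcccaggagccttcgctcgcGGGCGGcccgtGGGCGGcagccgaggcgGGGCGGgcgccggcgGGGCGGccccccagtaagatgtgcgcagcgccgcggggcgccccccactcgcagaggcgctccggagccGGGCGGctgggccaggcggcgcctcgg
The GC box was present 7 times in the Grik3 window, 2 times in that of Grik5 and 2 times in that of Grik4, and it was not found in the Grik2 window. Over all 32851 promoters of this length, 35.7% held at least 1 GC box on either strand. The TATA box TATAAA was found in none of the 4 windows and in 13.6% of all promoters. The E-box CANNTG, a palindrome in its fixed letters, occurred 1 time in the Grik3 window and 1 time in that of Grik2, with 72.3% of all promoters holding it. The Grik3 window was 82.0% G or C with 50 CpG dinucleotides, and the Grik5 window was 72.0% G or C with 10, beside medians of 52.7% and 7 over all promoters. These letters are a description of the windows only, since no factor or mark was measured on them.

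Sequencing depth and the identity of the libraries were examined first. The libraries held 7197692 to 18879762 reads on genes, so that a count of 0 still allowed 1.64 to 4.64 normalized counts for a gene (3 reads, counting error only). The targeted glypican, Gpc6, read 217, 226 and 126 normalized counts in the 3xCR tumors (replicates 2, 3, 4) and 675, 263, 3434 and 5084 in GPC6 replicates 1 to 4. GPC6 replicate 2 was therefore close to the 3xCR libraries in the gene that defines its group, and GPC6 replicate 1 stood between the groups. The sources used here do not say whether the transgene holds the mouse or another coding sequence, so this check is partial. GPC6 replicate 1 also stood apart by its proliferation markers, whose 7 genes summed to 502 normalized counts beside 3980 to 11222 in the other 6 libraries, and by the hypothalamic neuropeptide genes Avp (541) and Oxt (428), which did not pass 7.10 in any other library. Neuronal and glial markers, read as a check of the label brain, were present in every library, while the excitatory neuron gene Tbr1 was at 0 in 3xCR replicate 4 and GPC6 replicate 2. The libraries of a group come from separate brains, and the p-values below rest on the spread between them.

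To determine whether kainate and delta receptor RNA differed between 3xCR and GPC6 tumors, normalized counts were compared with limma on the log2(value + 1) scale over 14782 genes. None of the 6 genes changed at an adjusted p under 0.05. No gene at all passed this threshold in the comparison (0% of genes tested), while 689 genes (4.66%) had an unadjusted p under 0.05 and none of the 6 was among them. The range of the 3xCR libraries overlapped with that of the GPC6 libraries for all 6 genes, whereas 934 genes (6.32%) showed no overlap between groups. All 6 log2 fold changes were above 0, from 0.14 for Grik4 to 0.71 for Grik3, with a median of 0.50, beside a median of -0.02 over all genes tested, of which 48.3% were above 0. The 6 genes share libraries, and these counts are given as a description. In an exact two-sided permutation test of a single gene, 3 against 4 libraries cannot go below p = 0.057.

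**Figure D1:**
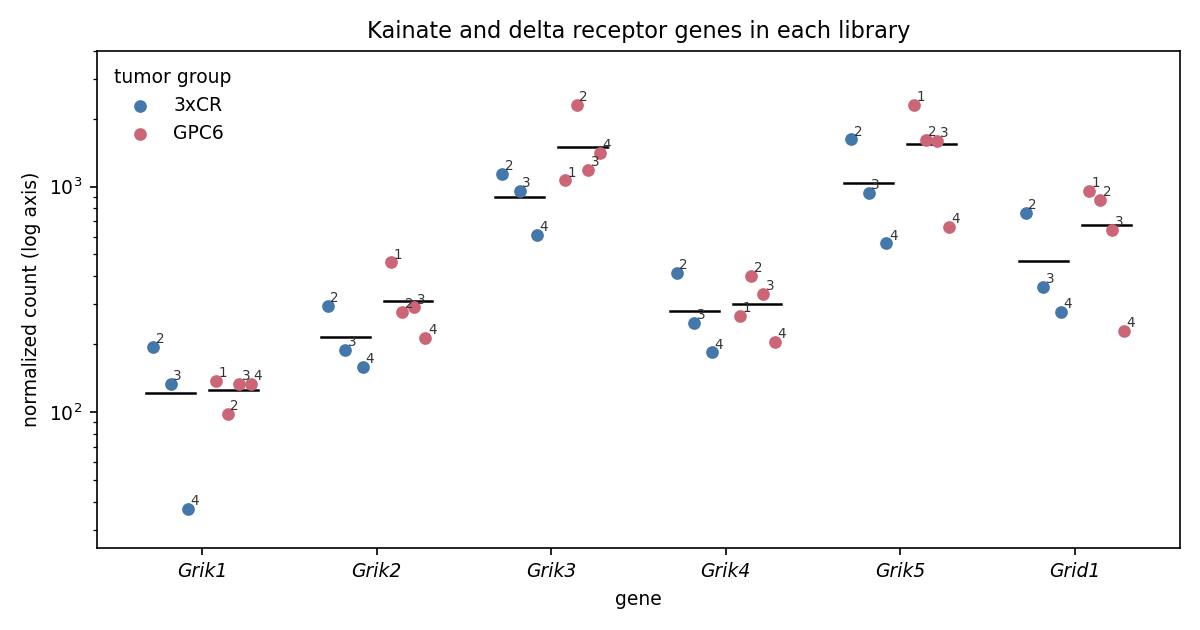
Normalized counts (log axis) of the 6 receptor genes, with a point for each library, the replicate number beside it, and a bar for the group mean (3xCR in blue, n = 3; GPC6 in red, n = 4). The colors intermix for every gene, 3xCR replicate 4 is the lowest library for Grik1 to Grik5, and the point that stands highest above the rest is Grik3 in GPC6 replicate 2, at 2304.

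Among the subunits that form channels by themselves, Grik3 showed the largest log2 fold change in the fit over all 7 libraries. Grik3 (ENSMUSG00000001985.9, chr4:125490700-125714173, plus strand) read 1141, 955 and 608 normalized counts in 3xCR replicates 2, 3 and 4. In GPC6 replicates 1 to 4 it read 1065, 2304, 1184 and 1413. GPC6 replicate 1 lay below 3xCR replicate 2, and the other GPC6 libraries lay above all 3xCR libraries. The means were 901 ± 271 (SD, n = 3) and 1491 ± 561 (SD, n = 4). The log2 fold change was 0.71 (SE 0.34, 95% confidence interval -0.07 to 1.48), a fold of 1.63, with limma p = 0.0687 and adjusted p = 0.730, and the exact permutation test gave p = 0.114. GPC6 replicate 2, whose Gpc6 level was near that of 3xCR, had the highest Grik3 level, and without it the log2 fold change was 0.48.

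Grik2 (ENSMUSG00000056073.16, chr10:49094833-49788766, minus strand), which encodes the GluK2 subunit found in many principal neurons, read 295, 189 and 159 normalized counts in the 3xCR libraries. It read 461, 278, 291 and 213 in GPC6 replicates 1 to 4. The highest library was GPC6 replicate 1 and the lowest was 3xCR replicate 4, and 3xCR replicate 2 exceeded 3 of the 4 GPC6 libraries. The log2 fold change was 0.53 (SE 0.34, exact permutation p = 0.229, limma adjusted p = 0.730). Without GPC6 replicate 1 it was 0.32.

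Grik1 (ENSMUSG00000022935.16, chr16:87895900-88290265, minus strand), encoding GluK1, had the lowest mean count of the 6 genes before correction for length. It read 195, 133 and 37.3 normalized counts in the 3xCR tumors, against 138, 97.8, 133 and 133 for the GPC6 tumors. The 3xCR libraries held both the highest and the lowest value. The level in 3xCR replicate 4 rests on 27 reads, for which the exact 95% Poisson interval is 24.6 to 54.3 normalized counts (counting error only), below every other library. The means were nearly equal at 122 ± 79.3 (SD, n = 3) and 125 ± 18.5 (SD, n = 4). The log2 fold change of 0.32 (SE 0.54, exact permutation p = 0.743, limma adjusted p = 0.869) was set by 3xCR replicate 4, and without that library it was -0.37.

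Of the high-affinity subunits, Grik5 (ENSMUSG00000003378.9, chr7:25009849-25072346, minus strand) was the more abundant. It read 1617, 935 and 559 normalized counts in the 3xCR libraries and 2306, 1604, 1599 and 664 in GPC6 replicates 1 to 4. GPC6 replicate 4, the library with the most Gpc6, was close to the lowest 3xCR library, and 3xCR replicate 2 reached the level of GPC6 replicates 2 and 3. The means were 1037 ± 536 (SD, n = 3) and 1543 ± 674 (SD, n = 4). The log2 fold change was 0.57 (SE 0.49, 95% confidence interval -0.57 to 1.71, exact permutation p = 0.4, limma adjusted p = 0.753). Leaving out single libraries gave 0.20 at the lowest (3xCR replicate 4 left out) and 0.96 at the highest (3xCR replicate 2), with 0.34 once GPC6 replicate 1 was dropped.

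Grik4 (ENSMUSG00000032017.14, chr9:42518135-42944493, minus strand), encoding GluK4, read 412, 247 and 184 normalized counts in 3xCR tumors and 267, 400, 334 and 205 in GPC6 tumors. Its highest library was a 3xCR tumor, replicate 2, and its range was the narrowest of the 6 genes, with a highest value 2.24-fold above the lowest. The log2 fold change was 0.14 (SE 0.35, exact permutation p = 0.743, limma adjusted p = 0.917). The direction rested on single libraries, since the log2 fold change was -0.13 without 3xCR replicate 4 and -0.01 without GPC6 replicate 2.

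Grid1 (ENSMUSG00000041078.7, chr14:34820108-35583379, plus strand), the delta receptor gene, read 766, 360 and 279 normalized counts in 3xCR replicates 2, 3 and 4. It read 957, 872, 640 and 229 in GPC6 replicates 1 to 4. Both the highest and the lowest library were GPC6 tumors. The log2 fold change was 0.48 (SE 0.56, 95% confidence interval -0.81 to 1.77, exact permutation p = 0.571, limma adjusted p = 0.814). It dropped to 0.17 when 3xCR replicate 4 was left out and stood at 0.93 when GPC6 replicate 4 was.

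GPC6 replicates 1 and 2, which stood apart in the checks above, were left out together as an alternative chosen after the data had been seen. The log2 fold changes were then 0.57 for Grik3, 0.42 for Grik1, 0.27 for Grik2, 0.12 for Grik5, -0.02 for Grik4 and -0.15 for Grid1. Grik4 and Grid1 lost the positive sign. The order of the 6 genes by fold change depended on the libraries used, since without GPC6 replicate 2 alone Grik3 (0.48) lay below Grik2 (0.56) and Grik5 (0.51), and without GPC6 replicate 4 it (0.71) lay below Grik5 (0.93) and Grid1 (0.93).

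Next, levels were compared between the genes after division by the summed exon length of each gene (normalized counts per kb). Over the 7 libraries the mean level per kb was 257 ± 122 (SD) for Grik5, 138 ± 59.1 for Grik3, 98.3 ± 49.7 for Grid1, 49.1 ± 15.3 for Grik4, 20.3 ± 7.53 for Grik2 and 18.4 ± 7.09 for Grik1. Neighbours in this order were compared within each library. Grik5 exceeded Grik3 in 6 of 7 libraries, with GPC6 replicate 4 as the exception, and Grik3 exceeded Grid1 in 5 of 7. Grid1 exceeded Grik4, and Grik4 exceeded Grik2, in 7 of 7 libraries. Grik2 exceeded Grik1 in 4 of 7 libraries, so these neighbours were not separated beyond their spread, and with the length of the longest transcript in place of all exons Grik1 (33.8) stood above Grik2 (28.6).

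The makeup of the kainate subunit RNA was then described as the share of each subunit in the summed Grik1 to Grik5 level per kb. The sum itself was 560, 363 and 224 in the 3xCR tumors and 665, 670, 539 and 356 in GPC6 replicates 1 to 4, with means of 383 ± 169 (SD, n = 3) and 558 ± 147 (SD, n = 4). Grik5 and Grik3 together made up 78.4% to 79.2% of it in 3xCR tumors and 80.3% to 84.9% in GPC6 tumors. These ranges did not overlap with all exons as the length, and they did with the longest transcript (77.3% to 77.9% and 77.4% to 84.0%).

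The balance between Grik5 and Grik3 was spread more widely among the GPC6 tumors than among the 3xCR tumors. The Grik5 share was 55.8%, 49.8% and 48.3% in the 3xCR libraries and 67.1%, 46.3%, 57.4% and 36.1% in GPC6 replicates 1 to 4. The Grik3 share was 22.7%, 29.3% and 30.2% in 3xCR tumors and 17.8%, 38.3%, 24.5% and 44.2% in GPC6 tumors. Expressed as a ratio of levels per kb, Grik5 over Grik3 was 1.60 to 2.46 in 3xCR tumors, while it reached 3.76 in GPC6 replicate 1 and was 0.816 in GPC6 replicate 4. The GPC6 tumors thus held both extremes of the ratio, and the 3xCR tumors lay between them. The upper extreme rested on GPC6 replicate 1, which stood apart in the checks above. The next highest GPC6 ratio, 2.34 in replicate 3, was below the 2.46 of 3xCR replicate 2. These ranges also compare 4 libraries with 3.

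The Grik4 share was the single one of the 5 subunit shares whose groups did not overlap. It was 12.3%, 11.4% and 13.7% in the 3xCR tumors and 6.74%, 10.02%, 10.4% and 9.65% in GPC6 replicates 1 to 4. The separation held with the longest transcript as the length (9.66% to 11.8% and 5.55% to 8.76%). A share falls when the other subunits rise, and the Grik4 level per kb itself overlapped between groups, at 30.8 to 69.1 in 3xCR tumors and 34.3 to 67.1 in GPC6 tumors. In two-sided exact permutation tests, added to the planned description, the Grik4 share gave p = 0.057, the smallest that 3 against 4 libraries allow and with no correction for the 5 shares, and the other 4 shares gave p from 0.629 to 0.971. Grik1 made up 2.17% to 5.55% and Grik2 made up 3.13% to 5.35% over the 7 libraries.

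**Figure D2:**
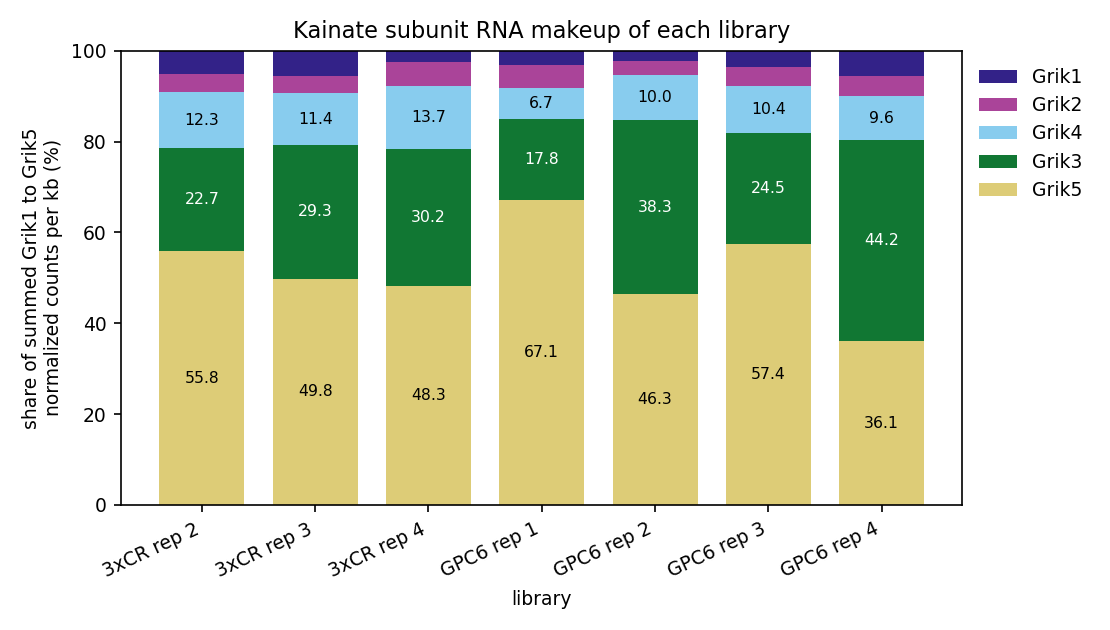
Share (%) of each kainate subunit in the summed Grik1 to Grik5 normalized counts per kb, with a stacked bar for each of the 7 libraries. Grik5 and Grik3 fill most of every bar, their balance runs from 67.1% and 17.8% in GPC6 replicate 1 to 36.1% and 44.2% in GPC6 replicate 4, and the Grik4 band is thinner in all 4 GPC6 bars than in the 3xCR bars.

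To place the 6 genes among the other glutamate receptors, the same fit was read for the AMPA, NMDA and metabotropic families. The AMPA subunit genes, which encode the fast glutamate channels, had a median log2 fold change of 1.35, with 4 of 4 above 0, 2 at an unadjusted p under 0.05 and 1, Gria3, without overlap between groups. For the NMDA subunit genes the median was 0.74, with 7 of 7 above 0, 2 at an unadjusted p under 0.05 and 1, Grin1 (log2 fold change 3.49, SE 1.18, limma adjusted p = 0.730), without overlap. Among the metabotropic genes, which signal through G proteins, 7 of 8 were tested, and all 7 were above 0 with a median of 1.30. Of these, 1 had an unadjusted p under 0.05 and 0 were without overlap. Over all genes tested, 48.3% were above 0, 4.66% had an unadjusted p under 0.05 and 6.32% showed no overlap. The family counts are given as a description. No gene of these families passed an adjusted p of 0.05. The difference in fold change between the families was not tested.

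**Figure D3:**
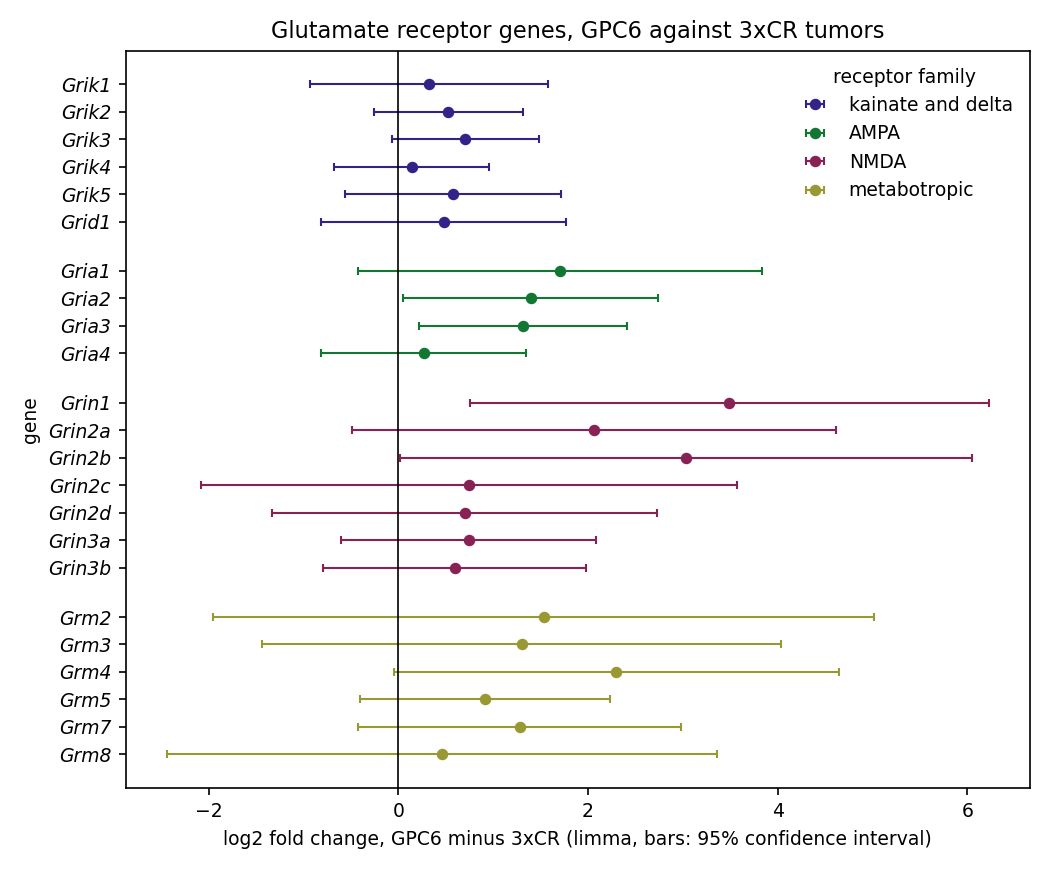
Log2 fold change (GPC6 minus 3xCR, limma) of tested glutamate receptor genes, each with its 95% confidence interval, colored by family. The points of the 6 kainate and delta genes sit between 0.14 and 0.71, and those of the other families reach from 0.26 for Gria4 to 3.49 for Grin1.

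From library to library, each of the 6 kainate and delta genes varied less than the median gene of each other receptor family. The SD of the log2 level over the 7 libraries was 0.45 for Grik4, 0.51 for Grik2, 0.58 for Grik3, 0.75 for Grik1, 0.76 for Grik5 and 0.84 for Grid1, around the median of 0.52 over all genes tested. The median SD was 1.05 for the AMPA, 1.84 for the NMDA and 1.86 for the metabotropic genes. Single genes overlapped, since Gria4 (0.67) and Grin3b (0.72) varied less than Grik1, Grik5 and Grid1. Summed over the list, the highest library was 3.04-fold above the lowest for the 6 kainate and delta genes, 8.92-fold for the AMPA and 21.6-fold for the NMDA genes. For the 12 pan-neuronal markers this fold was 8.84, and for the 7 excitatory neuron markers it was 246. In 3xCR replicate 4, the lowest library for each of these sums, the excitatory markers summed to 171 normalized counts, the pan-neuronal markers to 8332 and the 6 genes to 1826.

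The proteins that act on kainate receptors were read next. Neto1 showed 401, 214 and 101 normalized counts in 3xCR tumors and 450, 463, 271 and 187 in GPC6 tumors (log2 fold change 0.64, SE 0.52, limma adjusted p = 0.746). Neto2 showed 823, 487 and 483 in 3xCR tumors and 626, 700, 687 and 467 in GPC6 tumors (log2 fold change 0.08, SE 0.27, limma adjusted p = 0.939). Both auxiliary genes were present in every library with overlapping groups. The list of intracellular partners, which anchor, move or degrade receptor subunits, also holds a partner of the delta family. Of its 10 genes, 9 had a log2 fold change above 0 with a median of 0.18, beside 48.3% above 0 over all genes tested. Of the 10, 0 reached an unadjusted p under 0.05. Dlg4, the scaffold PSD-95 and the most abundant of them, had a log2 fold change of 1.18 (SE 0.68), Grip2, a PDZ scaffold, the largest at 1.93 (SE 1.15), and Cask, a membrane-associated scaffold, the smallest at -0.32 (SE 0.31).

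The ADAR family genes were examined as well, since the family holds enzymes that edit glutamate receptor transcripts, including the Q/R site of Grik1 and Grik2. Adarb2 was listed as a member of the family and is not taken here as an editing enzyme. Adarb1, the enzyme best known for this site, read 389, 316 and 155 normalized counts in 3xCR tumors and 1867, 320, 1098 and 610 in GPC6 tumors. The groups overlapped through GPC6 replicate 2, and the log2 fold change was 1.57 (SE 0.61, exact permutation p = 0.114, limma adjusted p = 0.730). Adar and Adarb2 had log2 fold changes of 0.40 (SE 0.33) and 1.49 (SE 0.86), also with overlap between groups. Editing itself cannot be read from counts per gene.

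For the delta receptor, the cerebellins and neurexins were read in the same way. They were part of a list that also holds the C1ql genes, which are not taken here as partners of GluD1. Of the 11 genes for C1q-family organizers and neurexins, 9 were tested and 8 had a log2 fold change above 0, with a median of 0.65 and 2 at an unadjusted p under 0.05. Cbln1, a cerebellin, was 1 of these 2, and it was the single gene of the list without overlap between groups. It read 31.2, 46.5 and 22.1 in 3xCR tumors and 158, 50.4, 81.6 and 67.9 in GPC6 tumors (log2 fold change 1.33, SE 0.48, limma adjusted p = 0.730). Cbln4 had the largest log2 fold change, 1.64 (SE 0.95), C1ql1 the smallest, -0.0016 (SE 0.62), and Nrxn2, the most abundant, 0.57 (SE 0.70). Among all genes tested, 6.32% were separated in this way, so 1 of 9 is read only as a count.

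The similarity of the 6 genes over the libraries was uneven, with r from 0.40 to 0.96. Pearson correlations of log2 levels were computed for the 15 pairs over the 7 libraries as a description, with no test, and all libraries share the normalization and differ in depth. The closest pair was Grik5 and Grid1 (r = 0.96, Spearman rho = 0.93, and r = 0.94 without the 2 libraries of most extreme Grik5), followed by Grik2 and Grik5 (r = 0.93, rho = 0.93, and r = 0.87 without the 2 of most extreme Grik2). Grik4 was close to Grid1 as well (r = 0.82, rho = 0.71, and r = 0.77 without 2 libraries). Grik3 had its highest r to Grik4 (r = 0.63, rho = 0.50), with r = 0.45 to Grik5 and r = 0.44 to Grid1, and these 3 values became -0.22, -0.41 and -0.43 without 3xCR replicate 4 and GPC6 replicate 2. For Grik1 the r to Grik5 of 0.60 became -0.16 without 3xCR replicates 2 and 4, its highest and lowest libraries.

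For each of the 6 genes, the 3 tested genes with the most similar profile over the 7 libraries were listed. Grik1 was most like Gpm6b (r = 0.97), Rfx4 (r = 0.96) and Pdzph1 (r = 0.96). Grik2 was most like B930041F14Rik, 2610301B20Rik and Abat, each with r between 0.99 and 1.00. Grik3 was most like Naa35 (r = 0.98), Tet3 (r = 0.97) and Clip2 (r = 0.96). Grik4 was most like Tmem80 (r = 0.98), Kcnip3 (r = 0.98) and Phyhipl (r = 0.97). The closest genes to Grik5 were Ranbp3l, a gene of low level in these tumors, Lrrn2 (r = 0.99) and Zfp938 (r = 0.99). Those closest to Grid1 were Ptprt, Nrxn2 and Unc79 (r = 0.99 each), and Nrxn2 is a presynaptic neurexin from the list of C1q-family organizers and neurexins. With 14782 genes and 7 libraries, high values of r arise for many genes, and they are given only to locate the profiles.

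Finally, the marker lists were set beside the receptor genes. All 12 pan-neuronal markers had a higher mean in GPC6 tumors, with 2 at an unadjusted p under 0.05, and the list summed to 8332 to 14209 normalized counts in 3xCR tumors and 10518 to 73669 in GPC6 tumors. All 8 microglia markers had a lower log2 mean in GPC6 tumors, with 4 at an unadjusted p under 0.05, and the list summed to 28647 to 51933 in 3xCR tumors and 15229 to 25782 in GPC6 tumors. The oligodendrocyte precursor markers were balanced, with 3 of 6 above 0 and sums of 15737 to 53654 in 3xCR tumors and 14116 to 74713 in GPC6 tumors. Astrocyte markers had 5 of 7 above 0 and sums of 11394 to 47758 and 17835 to 48635. The inhibitory neuron markers had the largest median log2 fold change of the marker lists, 2.59, with 7 of 7 above 0, 4 at an unadjusted p under 0.05 and 2 without overlap. None of the 5 oligodendrocyte markers and none of the 7 proliferation markers had a log2 fold change above 0, with medians of -0.84 and -0.58 and 0 at an unadjusted p under 0.05 in either list. The excitatory neuron markers had 7 of 7 above 0 (median 2.22) with 0 at an unadjusted p under 0.05, and the endothelial markers 4 of 5 above 0 with 1. No marker passed an adjusted p of 0.05, and the share of all genes at an unadjusted p under 0.05 was 4.66%. The microglia sums thus did not overlap between groups and the pan-neuronal sums did, and the part of microglia in the fold changes of the receptor genes was not tested.

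The pan-neuronal score was entered as a covariate in a further limma fit. In it, Grik5 had a log2 fold change of 0.01 (95% confidence interval -1.20 to 1.23), beside 0.57 without the covariate. For Grid1 the value was 0.04, for Grik2 0.10, for Grik4 0.08 and for Grik1 -0.21. Grik3 was at 0.99 in this fit (95% confidence interval 0.08 to 1.89), with an unadjusted limma p under 0.05 and an adjusted p of 1.00. Over all 14782 genes, 312 had an unadjusted p under 0.05 in this fit. The mean pan-neuronal score was -0.86 log2 units in 3xCR tumors and 0.64 in GPC6 tumors, with overlap between groups.

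Grik2 had r = 0.82 to the pan-neuronal score (rho = 0.75) and r = 0.87 to the inhibitory neuron score (rho = 0.82). Without the 2 libraries of most extreme score these values of r were 0.51 and 0.42. The other neuronal lists did not drop in this way. Grik2 had r = 0.72 to the excitatory neuron score (rho = 0.75, and r = 0.89 without 3xCR replicate 4 and GPC6 replicate 2). To the hypothalamic neuron score it had r = 0.86 (rho = 0.89, and r = 0.85 without GPC6 replicates 1 and 3). Its r to the astrocyte score was 0.72 (rho = 0.86, and r = 0.75 without 3xCR replicate 4 and GPC6 replicate 2). To the microglia score it had r = -0.87, and -0.41 without 3xCR replicate 4 and GPC6 replicate 1. Grik2 thus did not separate glial from neuronal scores. Grik3 did not follow the pan-neuronal score (r = 0.10, rho = 0.21). Its highest r was to the oligodendrocyte precursor score (r = 0.75, rho = 0.54, and r = 0.68 without GPC6 replicates 1 and 2), as was that of Grik4 (r = 0.69, rho = 0.57, and r = 0.71 without these libraries). To the microglia score Grik3 had r = -0.59 (rho = -0.64, and r = -0.82 without 3xCR replicate 4 and GPC6 replicate 1). Its r to the astrocyte score was 0.01, and -0.70 without 3xCR replicate 4 and GPC6 replicate 2. GPC6 replicate 2 had the highest oligodendrocyte precursor score of the 7 libraries, at 1.30 log2 units above the mean, and also the highest Grik3. Grik5 did not separate glial from neuronal scores, with r = 0.73 to the astrocyte score (rho = 0.79, and r = 0.94 without 3xCR replicate 4 and GPC6 replicate 2), r = 0.71 to the inhibitory neuron score (rho = 0.61, and r = 0.13 without 3xCR replicate 4 and GPC6 replicate 1), r = 0.67 to the pan-neuronal score and r = -0.70 to the microglia score. Grid1 had similar values to the oligodendrocyte score (r = 0.58, rho = 0.71, and r = 0.42 without GPC6 replicates 3 and 4), the hypothalamic neuron score (r = 0.58, rho = 0.54, and r = 0.50 without GPC6 replicates 1 and 3) and the astrocyte score (r = 0.56, rho = 0.57, and r = 0.94 without 3xCR replicate 4 and GPC6 replicate 2). For Grik1 the highest value was also to the astrocyte score (r = 0.79, rho = 0.96), and it was 0.29 without 3xCR replicate 4 and GPC6 replicate 2. These values are over 7 libraries, carry no test, and do not place a gene in a cell type.

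**Figure D4:**
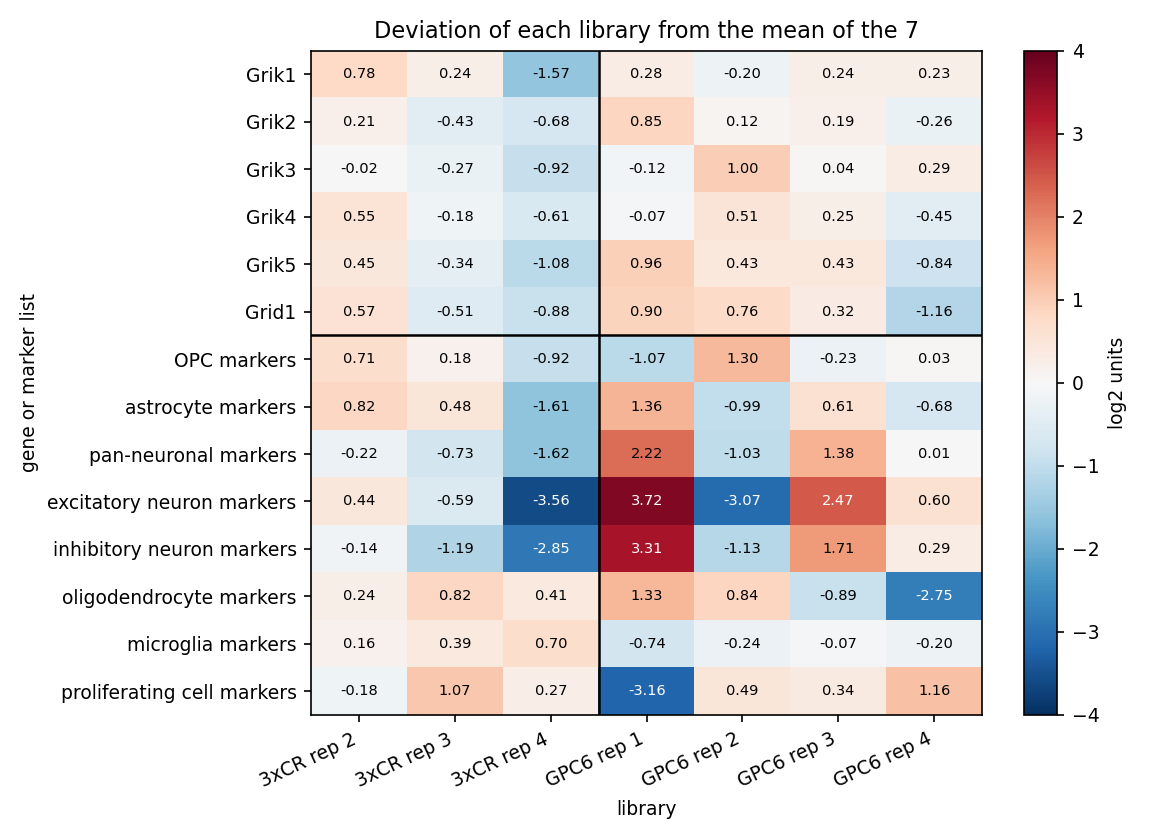
Deviation (log2 units) of each receptor gene and of each marker list from its mean over the 7 libraries, with libraries in columns. 3xCR replicate 4 is low for all 6 receptor genes and for the neuronal and astrocyte lists, GPC6 replicate 1 is high for the neuronal lists (2.22 for pan-neuronal) and low for proliferation (-3.16), and Grik3 and the precursor markers share their peak in GPC6 replicate 2 (1.00 and 1.30).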

How the data were processed

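Total RNA of dissected tumor tissue was made into stranded mRNA libraries, and the sources differ on the extraction kit and RNA input. Per the labels, reads were aligned to mm10 with STAR 2.5.0a and normalized with DESeq2 1.20.0. The deposited signal per gene is a read count divided by a size factor per library by the authors, with no length correction, and the gene annotation used for counting is not given in the sources used here. Because the value of 1 read could be found in each library, whole reads were recovered for 100% of values (tolerance 0.01 reads). Of 19282 entries, 25 named by dates (0.254% to 0.361% of reads) were left out. All 7 columns were used.

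The 14782 genes averaging at least 10 normalized counts were tested with limma 3.58.1 (R 4.3.3) on log2(normalized count + 1), two-sided, with a mean-variance trend and Benjamini-Hochberg adjustment. A fold change on this scale is slightly reduced for low genes. edgeR 4.0.16, DESeq2 1.42.0 and voom on recovered reads, other scalings, filters and pseudocounts, library weights, a replicate block, a pan-neuronal covariate and leaving out each library were alternatives. Levels per kb used exon lengths of the GENCODE annotation of GRCm38 (95.8% of symbols matched). A marker score is the mean deviation of log2 levels from each gene's mean. The fit was tested on simulated data. The receptor genes and lists were chosen with earlier results of these data known. Named were the 6 receptor genes, Gpc6, from each list the most abundant gene and those of largest and smallest fold change (all genes of lists of up to 3), and the 3 genes most like each receptor gene. Gria3, Grin1, Cbln1, Tbr1, Avp and Oxt were named after their values were seen. Some items are not reported here.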

Additional observations from a re-analysis of the deposited data

Results flagged for a closer look

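Grik1 in GPC6 replicate 2 was at 97.8 normalized counts, while the other 3 GPC6 libraries lay within 133 to 138. On the log2(value + 1) scale, the gap to the nearest library was 0.895 of the range of the group, above Dixon's 95% critical value for a group of 4. It was 1 of 29 quantities examined in this way, for which chance alone gives about 1.45. The narrow spread of the other 3 libraries sets this ratio, and the value lies inside the range of the 3xCR libraries.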

How the results depend on the processing

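No receptor gene passed an adjusted p of 0.05 in any of 132 combinations of gene and alternative (lowest 0.0650, Grik2 with library weights), and 126 of them kept the direction. The exceptions were Grik1 with the pan-neuronal score as a covariate (-0.21, a fit that also took Grik5 to 0.01, Grid1 to 0.04 and Grik2 to 0.10), Grik4 and Grid1 without GPC6 replicates 1 and 2 (-0.023 and -0.15), and single libraries left out: the log2 fold change ranged from -0.37 to 0.81 for Grik1 and from -0.13 to 0.45 for Grik4, negative without 3xCR replicate 4 for both and at -0.01 without GPC6 replicate 2 for Grik4. The cause was not tested. Across all genes, 0 passed in the main fit and in each fit without 1 library (lowest and highest count 0), 4 with DESeq2 and 1962 with library weights. Counts at an unadjusted p under 0.05 were 689 in the main fit, 991 with edgeR, 499 with voom, 1853 with DESeq2, 5105 with library weights, 312 with the pan-neuronal covariate, and 119 (without 3xCR replicate 4) to 1401 (without GPC6 replicate 2) with 1 library left out. Of the 689, 405 were higher in GPC6 tumors, beside 485 of 713 at equal totals, 336 of 717 at equal upper quartiles and 1293 of 1853 with DESeq2. With the longest transcript, Grik1 averaged 33.8 and Grik2 28.6 normalized counts per kb, and the Grik1 share averaged 6.07%. Samples of the same replicate number deviated together with r = 0.03, 0.06 and 0.17, so the number is not taken as a pairing. With a replicate block over replicates 2 to 4, 0 genes passed, 678 had an unadjusted p under 0.05, and Grik3 had a log2 fold change of 0.85 (limma adjusted p = 0.809, unadjusted 0.0157). Differences smaller than the intervals given could not be seen with 3 and 4 libraries.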
